A study of Saccharomyces cerevisiae with 12 samples.

Results

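Cryptic unstable transcripts (CUTs) that overlap no XUT or SUT were described here in the RNA-seq counts of total lysates and cytoplasmic fractions of budding yeast. Of the 925 CUTs in the deposited annotation, 634 share no base on their own strand with an XUT or a SUT (stable unannotated transcript), and the other 291 were left aside. The samples fall into 4 groups of 3 libraries each: total lysate of wild type, cytoplasmic fraction of wild type, total lysate of mex67-5 xpo1-1 and cytoplasmic fraction of mex67-5 xpo1-1. All cells were spheroplasted and kept at 37 °C for 1 h before lysis, so the wild-type cells went through the same shift. The labels give BY4741 as the strain of all samples. The study's reporting summary names BY4741 for the wild type only and gives no background for the mutant. Whether both strains share a background is therefore not certain. In the mutant, by the study's strain list, both chromosomal genes are deleted and plasmids carry the temperature-sensitive alleles mex67-5 and xpo1-1. Mex67 and Crm1 (also called Xpo1) are the export receptors that carry RNA through the nuclear pore. The study asked where non-coding RNAs reside and what happens to them when both receptors are shut off.

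CUTs are short transcripts of RNA polymerase II, often started from the same nucleosome-free regions as mRNAs and running the other way, or antisense to a neighbouring gene. Nrd1 and Nab3 bind short motifs in the young RNA and, with the helicase Sen1, end its transcription early. The TRAMP complex then adds a few adenosines, and the nuclear exosome with Rrp6 degrades the RNA. In a cell with an intact exosome CUTs are therefore scarce, unlike SUTs, which are stable enough to be seen, and XUTs, which are degraded in the cytoplasm by Xrn1.

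The reads of these libraries lie on the strand opposite to the RNA they came from, although the labels name a kit that is not stranded. Strands were checked at 17 mRNAs with a mean of at least 50000 counts on the opposite feature. Over all 12 libraries together, the gene's own feature held between 0.0318 and 0.469% as many counts per base (median 0.0988%). The RNA of a CUT was therefore taken from the opposite feature that holds at least 0.5 of it, and only where no other gene lies on the strand of the CUT along that feature. This was possible for 301 of the 634 CUTs. A further 282 have another gene on their strand there, and for 51 no opposite feature holds 0.5 of the transcript. The 301 CUTs are read from 285 features, since 15 features hold more than 1 of them. Each of these 285 is called a locus. The reading feature is a protein-coding gene, here called the host gene, at 250 loci, a feature named antisense at 33 and another kind of feature at 2. A count at a locus covers the RNA of the strand along the whole reading feature, of which the CUT covers a median share of 0.427. At 74 of the 301 CUTs another lncRNA lies on the same strand along the reading feature.

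The 634 CUTs have a median length of 523 bases, from 121 to 2157, and lie on all 16 nuclear chromosomes, from 7 on chromosome I to 84 on chromosome IV. Of these, 284 are on the plus strand and 350 on the minus strand. The 266 CUTs read from a protein-coding gene sit mostly towards the 3′ end of that gene. The middle of 141 of them falls in the last of 3 equal parts of the host gene, of 103 in the middle part and of 22 in the first.

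**Figure D1:**
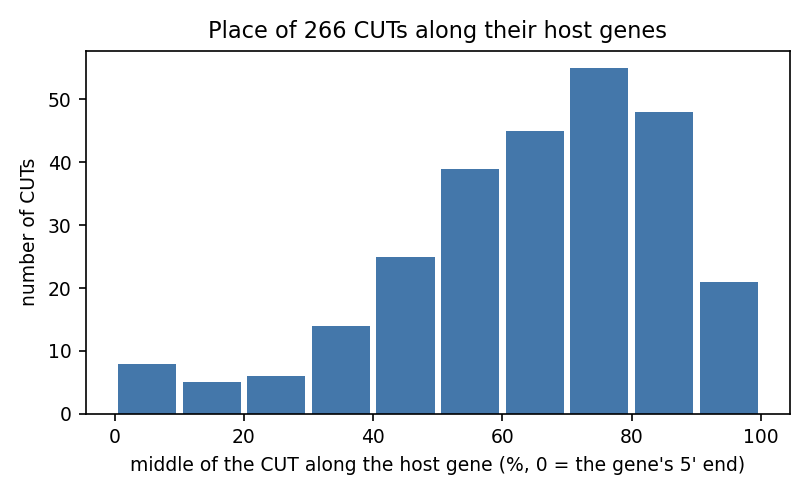
Number of CUTs (y axis) by the place of their middle along the host gene (x axis, in percent of the gene, with 0 at its 5′ end), in 10 bins. The bins from 60 to 90% are the fullest, with 45, 55 and 48 CUTs, and the bin at the 5′ end holds 8.

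The first 150 bases of 5 CUTs are shown, because these loci carry the main results: the most abundant one (CUT015), 2 among the largest rises into the cytoplasm of both strains (CUT834 and CUT372), the largest rise in mutant total lysates (CUT650) and the most abundant of the 5 largest (CUT229). The sequences are from the RefSeq assembly R64, which is the sacCer3 build of the deposited annotation, and read 5′ to 3′ along the RNA. Capitals mark the Nrd1 motifs GTAA and GTAG and the Nab3 motifs TCTT and CTTG, of which TCTT and CTTG overlap in TCTTG. CUT015 starts at chrII:326277-326426 on the plus strand, CUT229 at chrXI:246074-246223 on the plus strand, CUT834 at chrXV:364005-364154 on the minus strand, CUT372 at chrXV:397550-397699 on the plus strand and CUT650 at chrVIII:381218-381367 on the minus strand.
CUT015: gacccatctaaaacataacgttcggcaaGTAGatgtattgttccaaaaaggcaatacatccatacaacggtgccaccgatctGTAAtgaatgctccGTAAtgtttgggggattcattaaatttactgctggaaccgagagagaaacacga
CUT229: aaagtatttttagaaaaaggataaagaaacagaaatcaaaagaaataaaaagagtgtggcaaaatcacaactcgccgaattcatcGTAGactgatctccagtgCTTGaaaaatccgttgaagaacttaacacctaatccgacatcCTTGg
CUT834: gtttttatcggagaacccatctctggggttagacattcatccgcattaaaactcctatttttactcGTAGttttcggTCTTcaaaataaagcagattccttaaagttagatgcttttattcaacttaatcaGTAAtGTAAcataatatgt
CUT372: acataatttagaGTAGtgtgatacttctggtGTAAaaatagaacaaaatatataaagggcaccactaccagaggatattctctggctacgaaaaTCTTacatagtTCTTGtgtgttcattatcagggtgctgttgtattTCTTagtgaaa
CUT650: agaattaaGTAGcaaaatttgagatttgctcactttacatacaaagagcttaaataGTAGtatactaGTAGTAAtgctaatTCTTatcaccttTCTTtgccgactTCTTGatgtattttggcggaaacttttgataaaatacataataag
CUT015 has 3 Nrd1 motifs and 0 Nab3 motifs in this window, and the other 4 CUTs hold both kinds. A match is a run of letters and not a binding site.

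Both kinds of motif were frequent in the first 150 bases of the CUTs on the strand of the RNA. Of the 634 windows, 75.2% held GTAA or GTAG and 86.4% held TCTT or CTTG, with a mean of 1.46 and 2.70 matches per window. In 64.5% of the windows both kinds were present. On the opposite strand of the same windows the shares were 64.7%, 68.5% and 42.0%. The opposite strand at the starts of protein-coding features held Nab3 motifs in 85.6% and both kinds in 58.7%, near the shares of the CUTs. The 80465 windows of 150 bases that tile the nuclear chromosomes held the Nrd1 motifs in 63.7% and the Nab3 motifs in 75.2% on the plus strand, and both in 47.6%. Windows at the starts of 847 SUTs held both in 50.8%, of 1656 XUTs in 53.2% and of 6664 protein-coding features in 39.9%. The 291 CUTs that overlap an XUT or a SUT had 66.7%, close to the share in the 634. The mean GC content was 36.4% in the windows of the 634 CUTs and 36.8% in those of the 291 other CUTs. It was 39.1% in SUTs, 39.3% in XUTs, 38.1% in protein-coding features and 38.3% in the tiles. The part of GC content in the motif shares was not tested.

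**Figure D2:**
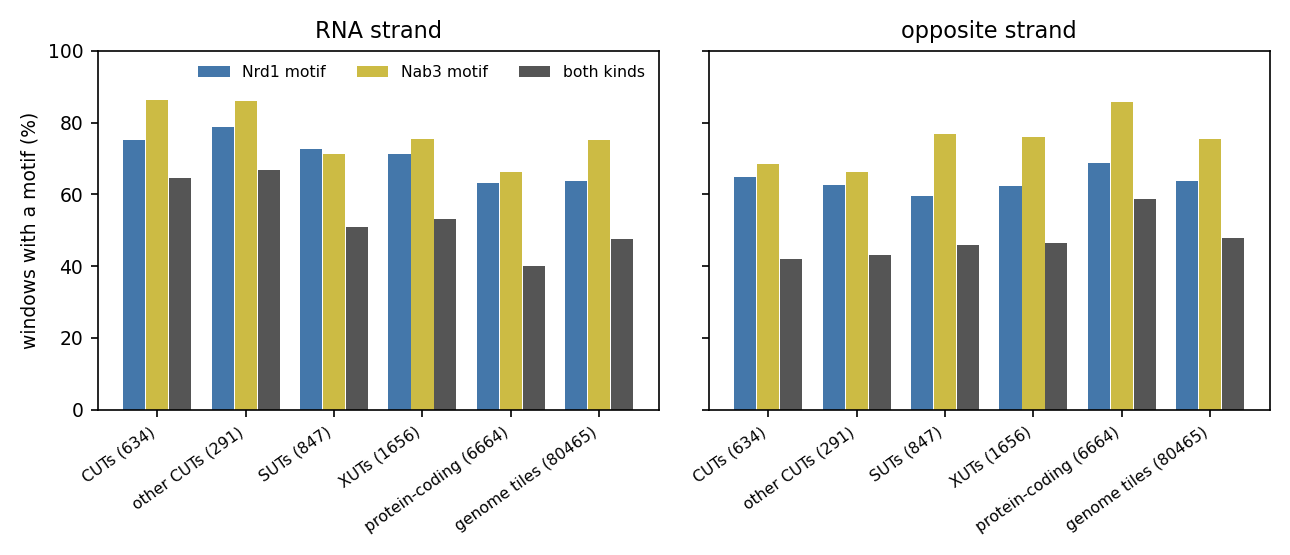
Share of 150-base windows with at least 1 Nrd1 motif, at least 1 Nab3 motif or both kinds (y axis, percent), on the strand of the RNA (left) and on the opposite strand (right), for 6 sets of windows whose numbers are in brackets. On the strand of the RNA both kinds were present in 64.5% of the CUT windows and in 47.6% of the genome tiles.

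Most CUT loci held little RNA. Library totals ranged from 24532091 to 37361004 counts, and the TMM-scaled library sizes, on which the fold changes rest, from 22367431 to 43915917. In wild-type total lysates the median locus had a mean of 15.0 counts, 83 of the 285 loci had a mean under 10, and 6 had 0 counts in at least 1 of these libraries. Per length, as reads per kilobase of feature, scaled to the library total (RPKM), the loci had a median of 0.287 in wild-type total lysates, with quartiles at 0.178 and 0.517, and 31 loci were above 1. Per base the reading features held a median of 1.70% of the RNA of the opposite strand, mostly the host mRNA, in wild-type total lysates, 3.84% in wild-type cytoplasm, 3.13% in mutant total lysates and 5.89% in mutant cytoplasm. In wild-type total lysates this was under 1% at 90 loci. At 42 it was no higher than the 0.469% given above as the highest share of reads on the wrong strand. That limit is pooled over all 12 libraries and was not taken per group, and antisense RNA of those genes may be part of it. At 16 loci in wild-type total lysates, the RNA of the CUT's strand was the more abundant of both.

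The level of the median locus differed between the groups in the order total below cytoplasm within each strain, and wild type below mutant. The median RPKM per library was 0.287 ± 0.0047 (SD, n = 3) in wild-type total lysates, 0.656 ± 0.177 (SD, n = 3) in wild-type cytoplasm, 0.593 ± 0.106 (SD, n = 3) in mutant total lysates and 1.39 ± 0.254 (SD, n = 3) in mutant cytoplasm. The wild-type cytoplasm and the mutant total lysates overlapped in their ranges, from 0.524 to 0.857 and from 0.473 to 0.674. Scaled by TMM library sizes, the means were 0.371, 0.711, 0.609 and 0.944, which brings the ratio of mutant cytoplasm to wild-type total lysate from 4.84 to 2.54. Among the wild-type cytoplasmic libraries, replicate 2 was the highest (0.857, against 0.524 and 0.585). Features named intergenic, of at least 200 bases, moved with the CUT loci, from a median RPKM per library of 0.309 ± 0.0107 (SD, n = 3) in wild-type total lysates to 0.621 ± 0.179 (SD, n = 3) in wild-type cytoplasm, 0.807 ± 0.165 (SD, n = 3) in mutant total lysates and 1.76 ± 0.44 (SD, n = 3) in mutant cytoplasm. All intergenic features, of any length, together rose as a share of all counts from between 0.189 and 0.21% in wild-type total lysates to between 0.574 and 0.872% in mutant cytoplasm. The part of this general rise of sparsely transcribed stretches in the CUT results was not tested. Counts are shares of a library, so a larger share and more RNA per cell cannot be told apart.

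**Figure D3:**
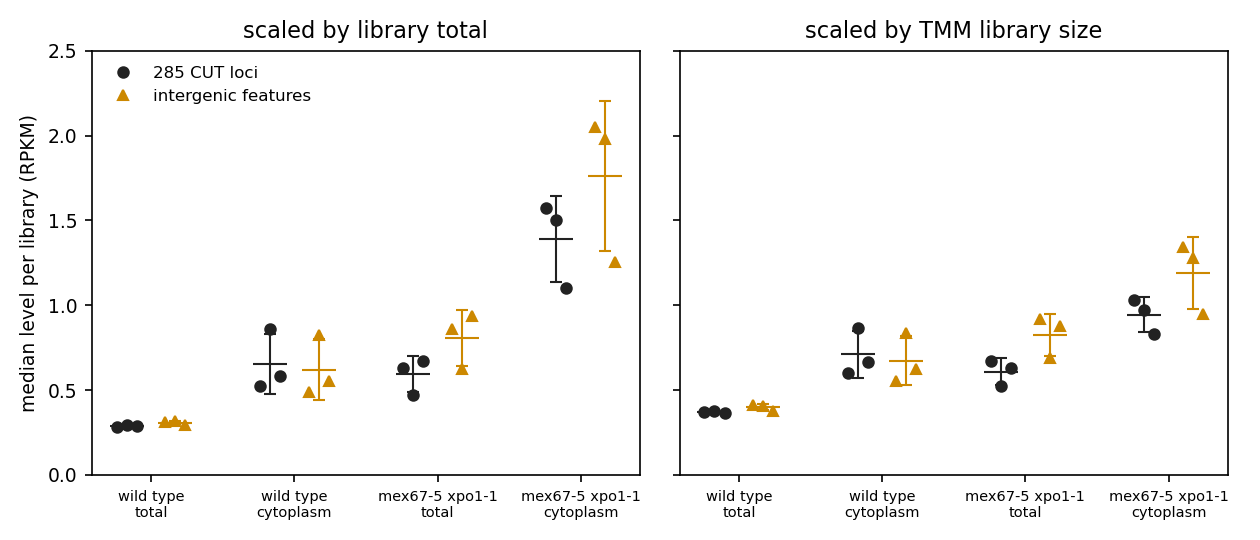
Median RPKM per library (y axis) of the 285 CUT loci (circles) and of the intergenic features (triangles) in the 4 groups, scaled by library totals (left) and by TMM library sizes (right). Points are libraries, long bars group means and whiskers 1 SD (n = 3). Both kinds of feature rose together from wild-type total lysate to mutant cytoplasm.

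CUT015 was by far the most abundant of the 285 loci, with 54.1 ± 0.79 RPKM (SD, n = 3) in wild-type total lysates. It lies on chromosome II from 326277 to 326977 on the plus strand, between TCM62 and GIP1, and runs across the valine tRNA gene tV(UAC)B, which is on the other strand. It was read from antisense495 (326277 to 326742), which had 953, 782 and 831 counts in wild-type total lysates and 106, 134 and 98 in wild-type cytoplasm. In the mutant the counts were 1301, 1248 and 1270 in total and 172, 183 and 121 in cytoplasm. Every cytoplasmic library was thus far below every total library in both strains. The fall from total to cytoplasm was -2.93 on the log2 scale in wild type (SE 0.14, adjusted p = 6.07e-05, edgeR) and -3.14 in mex67-5 xpo1-1 (SE 0.16, adjusted p = 2.59e-05). In total lysates the mutant was higher by 0.34 (SE 0.11, adjusted p = 0.0275). The counts lay on the feature along the first part of the annotated transcript. The features that follow antisense495 on the same strand, tV(UAC)B (326792 to 326865) and antisense496 (326915 to 326977), had at most 5 and 4 counts in any library. They are only 74 and 63 bases long, so where this RNA ends is not shown. The feature of CUT015 itself, which holds RNA of the other strand, had between 8 and 24 counts per library.

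The next loci in wild-type total lysates were far lower. CUT553, read from antisense62, had 3.81 ± 0.95 RPKM (SD, n = 3), and CUT730, opposite to the pseudogene SDC25, had 3.0 ± 0.16 (SD, n = 3). CUT229, opposite to LAP4, which encodes a vacuolar aminopeptidase, had 2.26 ± 0.5 (SD, n = 3). CUT787, opposite to the mitochondrial carrier gene YHM2, had 2.23 ± 0.14 (SD, n = 3). CUT246 (opposite to POM33, a nuclear pore membrane protein), CUT743 (antisense3020), CUT686 (TAX4), CUT471 (GLE1, an mRNA export factor at the pore) and CUT923 (DPM1, dolichol phosphate mannose synthase) had between 1.92 and 2.12 RPKM. CUT553 and CUT730 overlap within 1 SD, as do most neighbours in this order after CUT229, so the order among neighbours is not set by these libraries. Each level is that of the whole reading feature. CUT743 has 141 bases and its feature 711, and CUT730 has 829 bases and SDC25 3147. Most of the RNA at these 2 loci may therefore lie outside the CUT.

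In wild type, most CUT loci that could be tested had a larger share in the cytoplasm than in the total lysate. Of the 285 loci, 78 passed the filter of a mean count above 40, and 49 of them were higher and 3 lower in the cytoplasm by edgeR's quasi-likelihood test, with an adjusted p under 0.05. Over all 11976 features tested, 22.3% were higher and 17.6% lower. A locus with little RNA in total lysates passed the filter only through the cytoplasm, so the counts among those that passed lean towards a rise. Without the filter, 115 of the 285 loci were higher (40.4%) and 6 lower (2.11%), beside 15.6% and 15.1% of all 20043 features, and of 1712 intergenic features 291 were higher and 97 lower (5.67%). The median log2 fold change over all 285 was then 0.87, beside 0.10 for all features and 0.51 for the intergenic features. The number of higher loci rested on 1 library: without replicate 2 of the cytoplasm it was 19 (of 47 tested), while leaving out each other library gave between 33 and 55. Of the 49, 14 were also called with each of the 6 libraries left out in turn, and leaving out 1 total lysate kept between 34 and 37.

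The 5 largest rises in wild type were at CUT075, CUT372, CUT834, CUT752 and CUT619. All 5 had under 40 counts in every total lysate, so they passed the filter only through the cytoplasm. CUT075, opposite to the transcription factor gene YAP6, went from 17, 29 and 37 counts in total to 70, 442 and 229 in cytoplasm, a log2 ratio of 3.03 ± 0.55 (SE, adjusted p = 0.00528). CUT372, opposite to SHE4, whose product helps myosins fold, went from 8, 13 and 21 counts to 46, 206 and 102, a log2 ratio of 2.96 ± 0.5 (SE, adjusted p = 0.00427). CUT834, opposite to PET127, a gene of mitochondrial RNA processing, went from 20, 24 and 11 counts to 41, 276 and 138, a log2 ratio of 2.92 ± 0.57 (SE, adjusted p = 0.00673). In all 3 the cytoplasmic replicate 2 was the highest library and replicate 1 the lowest of its group, and no cytoplasmic library reached down to the total lysates. CUT752, opposite to ROM2, which encodes an exchange factor for Rho1, rose by 2.83, and CUT619, opposite to CAF130 of the CCR4-NOT complex, by 2.63 on the log2 scale. In wild-type total lysates CUT752 was within the range of reads on the wrong strand, with 0.256% of the RNA of the host strand per base, as were 9 of the 49 higher loci in all. Without the loci in that range, 40 of 67 were higher.

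The 3 lower loci were CUT015 (above), CUT722 and CUT049. CUT722, opposite to the general amino acid permease gene GAP1, went from 69, 78 and 98 counts in total to 20, 54 and 39 in cytoplasm, a log2 ratio of -1.17 ± 0.28 (SE, adjusted p = 0.0143). CUT049, opposite to HBT1, went from 121, 98 and 83 counts to 58, 84 and 57, a log2 ratio of -0.62 ± 0.2 (SE, adjusted p = 0.0421). CUT049 was called in 3 and CUT722 in 4 of the 6 fits that leave out 1 library, with CUT049 lost without total replicate 1, total replicate 2 or cytoplasmic replicate 3 and CUT722 without replicate 3 of either fraction. Per base the reading feature of CUT722 held 6.91% of the RNA of the host strand in wild-type total lysates and 4.06% in wild-type cytoplasm, and that of CUT049 held 0.86% and 0.38%. The second value of CUT049 is within the range of reads on the wrong strand.

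In mex67-5 xpo1-1 the cytoplasmic share was again the larger one at most loci. Of 164 loci tested, 115 were higher in the cytoplasm and 4 lower (adjusted p under 0.05), beside 30.0% and 28.7% of all 13763 features tested. Here too, a locus with little RNA in total lysates passed the filter only through the cytoplasm, so these counts lean towards a rise. Without the filter, 136 of the 285 loci were higher (47.7%) and 5 lower (1.75%), beside 23.7% and 22.8% of all features, and of 1742 intergenic features 592 were higher and 114 lower (6.54%). The median log2 fold change was then 0.71 for the CUT loci, 0.63 for the intergenic features and 0.06 for all features. With library totals in place of TMM sizes, the median log2 ratio of all features tested moved from -0.01 to 0.50 and that of the CUT loci from 1.04 to 1.54. Of the 115 loci, 85 were also called with each of the 6 libraries left out in turn.

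The largest rises in the mutant were at CUT834, CUT472, CUT638, CUT372 and CUT228. CUT834 went from 86, 73 and 129 counts in total to 582, 795 and 368 in cytoplasm, a log2 ratio of 2.46 ± 0.24 (SE, adjusted p = 0.000146). CUT372 went from 51, 54 and 67 counts to 340, 386 and 228, a log2 ratio of 2.34 ± 0.19 (SE, adjusted p = 8.34e-05). These 2 loci were thus among the 5 largest rises in both strains. CUT472, opposite to MRPL11 of the mitochondrial ribosome, went from 35, 21 and 41 counts to 175, 279 and 132, a log2 ratio of 2.45 ± 0.29 (SE, adjusted p = 0.000253). CUT228, opposite to the DNA repair endonuclease gene APN1, rose by 2.30, and CUT638, opposite to YHL018W, by 2.40 on the log2 scale. CUT228 is the longest of the CUTs, with 2157 bases. CUT472, CUT638 and CUT228 had a mean under 40 counts in mutant total lysates, so they passed the filter only through the cytoplasm.

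The 4 lower loci in the mutant were CUT015, CUT568, CUT049 and CUT043. CUT568, opposite to GLC7, the catalytic subunit of protein phosphatase 1, went from 100, 36 and 73 counts to 42, 46 and 30, a log2 ratio of -0.97 ± 0.36 (SE, adjusted p = 0.0451). Its groups overlapped. CUT049 had a log2 ratio of -0.63 (adjusted p = 0.0452) and CUT043, opposite to the citrate synthase gene CIT2, one of -0.61 (adjusted p = 0.0288). The groups of both overlapped in counts per library total but not in the counts themselves. Per base the reading feature of CUT049 held 0.501% of the RNA of the host strand in mutant total lysates and 0.166% in mutant cytoplasm. The second value is within the range of reads on the wrong strand. With library totals only CUT015 of the 4 kept its call, and of the 6 fits that leave out 1 library CUT049 and CUT043 were called in 2 each and CUT568 in 1, the one without total replicate 2. CUT568 and CUT043 lie outside the rule for named loci and are given because the count was small.

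Between the strains the shift from total to cytoplasm was mostly alike in direction. Of the 75 loci tested in both strains, which share no library, 66 had the same sign, 38 were higher in the cytoplasm of both and 2 were lower in both. Over all features tested, 22.3% were higher in wild type and 30.0% in the mutant, and the shares alike in both strains were not counted. Loci with little RNA in total lysates passed the filter only through the cytoplasm, so these 75 lean towards a shared rise. No locus was called in opposite directions. Across these 75 loci the log2 fold changes of both strains correlated with a Pearson's r of 0.797 and a Spearman's rho of 0.717, given as a description, since the loci share their libraries.

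**Figure D4:**
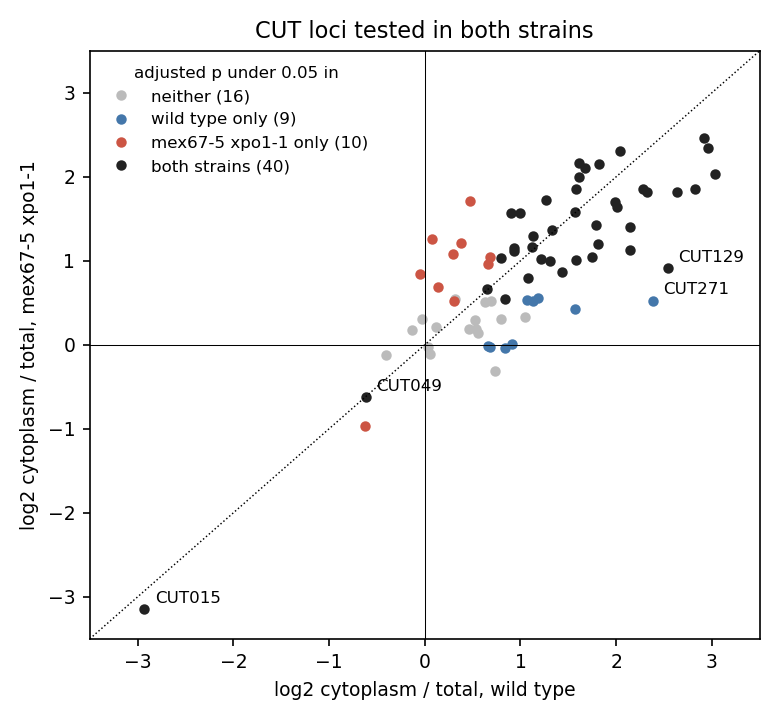
Log2 fold change from total lysate to cytoplasm in wild type (x axis) and in mex67-5 xpo1-1 (y axis) of the 75 CUT loci tested in both, coloured by the strain in which the adjusted p was under 0.05. Points lie mostly in the upper right, with 40 loci called in both strains, and CUT015 and CUT049 are the 2 called lower in both.

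Whether this shift differed between the strains was asked by an interaction term in a fit of all 12 libraries. Of 136 loci, 3 had a larger cytoplasmic shift in the mutant and 3 a smaller one (adjusted p under 0.05), beside 4.57% and 5.68% of all 13145 features. The share among the CUT loci was 2.21% in each direction, which is not above the background. With the replicate number as a block, 4 loci shifted more and 1 less. CUT307, a CUT of 129 bases opposite to YMR194C-A, had 15, 7 and 11 counts in wild-type total lysates and 20, 56 and 38 in wild-type cytoplasm. In the mutant the counts were 74, 77 and 89 in total and 73, 108 and 83 in cytoplasm, a log2 ratio of 0.01 (adjusted p = 0.982). The mutant fractions overlapped in counts and after TMM scaling, but not in counts per library total, where the cytoplasm was higher. Its interaction was -1.67 (SE 0.37, adjusted p = 0.0148), and it was the only one of the 6 loci still called with each library left out in turn. CUT271, opposite to the phosphatidylinositol 4-kinase gene STT4, had an interaction of -1.80 (adjusted p = 0.0493) and CUT129, opposite to YGL185C, one of -1.56 (adjusted p = 0.042). Both lost their call with the replicate number as a block (adjusted p = 0.0588 and 0.0603) and with library totals (0.105 and 0.104). In wild-type total lysates CUT271 was within the range of reads on the wrong strand, with 0.14% of the RNA of the host strand per base. The STT4 RNA of the other strand had an interaction of -0.70 (adjusted p = 0.0328, edgeR). CUT304 opposite to the peroxisome inheritance gene INP2 (1.53, adjusted p = 0.0404), CUT665 opposite to the flippase gene NEO1 (1.30, adjusted p = 0.0225) and CUT895 opposite to the ribosome biogenesis GTPase gene NOG1 (1.24, adjusted p = 0.049) shifted more in the mutant.

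In total lysates, most tested CUT loci were higher in the mutant than in wild type. Of 75 loci tested, 49 were higher and 2 lower (adjusted p under 0.05), beside 26.9% and 25.6% of all 12360 features. A locus with little RNA in wild type passed the filter only through the mutant, so the counts among those that passed lean towards a rise. Without the filter, 108 of the 285 loci were higher (37.9%) and 4 lower (1.4%), beside 22.4% and 21.1% of all features. Intergenic features had 34.8% higher and 5.31% lower in the same fit, and a median log2 fold change of 0.91 beside 0.62 for the CUT loci. The share of higher features was thus somewhat larger and the median lower at the CUT loci than in intergenic stretches, and the difference was not tested. Of the 49 higher loci, 29 were also called with each library left out in turn.

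CUT229 had the most counts of the 5 largest rises. Opposite to LAP4, it had 236, 125 and 170 counts in wild-type total lysates and 1106, 1002 and 1250 in mutant total lysates, with no overlap between the strains. The log2 ratio was 2.44 ± 0.16 (SE, adjusted p = 6.81e-06). In the cytoplasm it had 217, 181 and 169 counts in wild type and 2100, 2087 and 1697 in the mutant. The LAP4 RNA of the other strand, read from the feature of CUT229, had means of 2319 counts in wild-type and 2373 counts in mutant total lysates (log2 fold change -0.22, adjusted p = 0.464). CUT650, opposite to YHR140W, had the largest rise, from 19, 18 and 21 counts to 165, 133 and 207, a log2 ratio of 2.87 ± 0.21 (SE, adjusted p = 1.32e-05). CUT307 rose by 2.62 on the log2 scale. CUT691, opposite to POL31, a subunit of DNA polymerase delta, went from 23, 5 and 11 counts to 99, 68 and 106, a log2 ratio of 2.57 ± 0.37 (SE, adjusted p = 0.000513). CUT240, opposite to IRS4, went from 17, 16 and 11 counts to 89, 96 and 105, a log2 ratio of 2.47 ± 0.23 (SE, adjusted p = 4.39e-05). CUT650, CUT307, CUT691 and CUT240 had under 40 counts in every wild-type total lysate, so they passed the filter only through the mutant.

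The 2 lower loci were CUT722 and CUT049. CUT722 fell from 69, 78 and 98 counts in wild-type to 30, 14 and 37 in mutant total lysates, a log2 ratio of -1.85 ± 0.31 (SE, adjusted p = 0.00114). Here CUT722 passed the filter only through wild type. The GAP1 RNA of the other strand moved the opposite way, from a mean of 280 to a mean of 2690 counts (log2 fold change 3.04, adjusted p = 7.58e-06). In mutant total lysates the reading feature of CUT722 held 0.238% of the GAP1 RNA per base, within the range of reads on the wrong strand. CUT049 fell by 0.54 on the log2 scale (adjusted p = 0.0471), and its libraries overlapped between the strains in counts per library total. It was called in 2 of 6 fits without 1 library, those without wild-type replicate 3 or mutant replicate 1, and CUT722 in all 6.

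**Figure D5:**
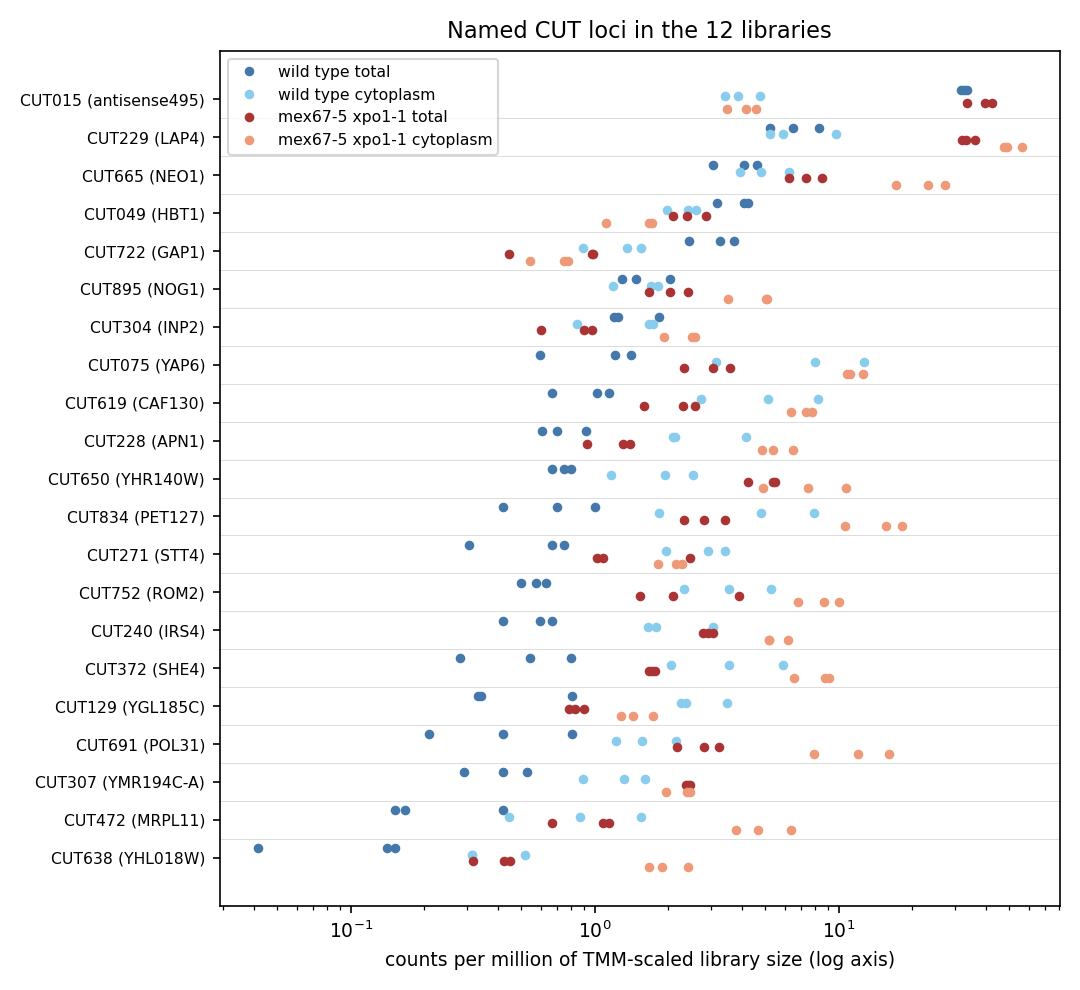
CPM, counts scaled to the TMM library size (x axis, log axis), of the 21 loci named for a rise or fall, with the reading feature in brackets, in each of the 12 libraries. Each dot is 1 library and colours are the 4 groups. At CUT015 the cytoplasmic libraries lie far to the left of the total lysates in both strains, and at CUT229 the mutant libraries lie far to the right of the wild type.

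The changes of a CUT and of the RNA on the host strand were weakly correlated at most. Across the loci for which both could be tested, Spearman's rho between the log2 fold changes was 0.123 in wild type from total to cytoplasm (73 loci), -0.0107 in the mutant (153 loci) and -0.0541 between the total lysates (70 loci, where Pearson's r was -0.245). These values describe loci that share their libraries. Of the 47 CUT loci with a testable host strand that were higher in wild-type cytoplasm, the host strand was higher at 11 and lower at 6. Of 110 in the mutant it was higher at 13 and lower at 39, and of 47 between the total lysates it was higher at 6 and lower at 14. Over all hosts tested, the host strand was higher at 41 and lower at 53 of 244 in wild type, higher at 43 and lower at 85 of 246 in the mutant, and higher at 44 and lower at 63 of 245 between the total lysates. The host strand of all 250 protein-coding hosts had a median log2 fold change of -0.07 from total to cytoplasm in wild type (244 tested), beside 0.02 for all features, and of -0.15 in the mutant (246 tested), beside -0.01.

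CUTs near genes known for regulation by early termination could mostly not be read. Of those genes, ADE12, which encodes adenylosuccinate synthase, had a readable CUT within 500 bases upstream. CUT324 ends near its start and was read from POP1, a subunit of RNase P and RNase MRP. It had 24, 17 and 22 counts in wild-type total lysates and 34, 132 and 70 in wild-type cytoplasm, a log2 ratio of 1.82 ± 0.37 (SE, adjusted p = 0.0078). In the wild-type fractions it passed the filter only through the cytoplasm. In the mutant the counts were 57, 42 and 62 in total and 253, 331 and 206 in cytoplasm (2.16, adjusted p = 0.000122). CUT324 covers a share of 0.0298 of the POP1 feature, so most of this RNA may lie outside the CUT. CUT496 and CUT497 at TPI1, CUT680 at URA2, CUT325 at ADE12 and CUT887 at NAB3 were not read.

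A list of genes that end, process or degrade RNA, mostly of the nuclear pathway of CUTs but also with XRN1 and DCP2 of cytoplasmic decay, was read from the features along their opposite strand. Of 27 such genes, 13 had such a feature, and all 13 were tested. In mutant total lysates 1 was higher and 6 were lower than in wild type, beside 26.9% and 25.6% of all features. The largest falls, named after their values were seen, were at XRN1, the cytoplasmic exonuclease (-1.04, adjusted p = 0.000325), and AIR1 of TRAMP (-0.79, adjusted p = 0.00265). NAB3 was lower by 0.49 (log2 ratio -0.49 ± 0.1, SE, adjusted p = 0.00369), and PAP2, the poly(A) polymerase of TRAMP, had a log2 fold change of -0.14 (adjusted p = 0.247). The higher one, named because the count was small, was PCF11, a termination factor (0.43, adjusted p = 0.00478). From total to cytoplasm, 1 was higher (DCP2, the decapping enzyme) and 3 were lower in wild type, beside 22.3% and 17.6% of all features. In the mutant 0 were higher and 5 lower by edgeR, beside 30.0% and 28.7% of all features. DESeq2 gave the same counts in the mutant, and 0 and 6 had an unadjusted p under 0.05 in edgeR. NRD1, SEN1, RRP6 and MTR4 had no such feature and give no value here.

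Read by the same rule, SUT and XUT loci also leaned towards the cytoplasm. In wild type 31.0% of 58 SUT loci and 34.4% of 241 XUT loci tested were higher in the cytoplasm, beside 62.8% of the 78 CUT loci. In the mutant 32 of 80 SUT loci were higher, 54.1% of 344 XUT loci and 70.1% of the 164 CUT loci. Without the filter, SUT, XUT and CUT loci had 20.5%, 20.6% and 40.4% in wild type, beside 15.6% of all features, and 30.4%, 40.4% and 47.7% in the mutant, beside 23.7%. The classes differ in level and length, and the difference between them was not tested.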

How the data were processed

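RNA-seq counts of 12 libraries were used, 3 in each of 4 groups taken from the labels. By the submitters' processing notes, STAR (2.5.2a) was the aligner, sacCer3 the build and featureCounts (1.5.0-p1) the counter, and the authors deposited whole-number counts per feature, without normalization. The strand and overlap settings are not given in the sources used here. Of the deposited annotation, features, strands and coordinates were used. Features that overlap on 1 strand hold the same reads, and reads shared by paralogs were not examined. All 6656 nuclear start codons of the annotation read ATG in the RefSeq R64 genome, from which sequences were taken.

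Differences were fitted in R 4.3.3 with edgeR 4.0.16 (TMM factors, quasi-likelihood F-test). A feature entered a fit where its mean count there exceeded 40, p-values were Benjamini-Hochberg adjusted over all features in the fit, and 0.05 was the threshold. Only the libraries of the groups compared entered a fit, and all 12 for the interaction. Standard errors are the log2 fold change divided by the root of the F statistic. Tests were first tested on simulated data. Python (version 3.11.15) gave the summaries. Alternatives were DESeq2 (version 1.42.0), RLE factors, library totals, other filters, a threshold of 0.01, all libraries in 1 fit, a replicate block, other reading rules and fits without 1 library.

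The members and lists were chosen with earlier results of these data known. Named loci are, per comparison, the 5 largest rises and 5 largest falls among called loci whose libraries do not overlap in CPM (3 each way, called only, for the interaction), the 10 highest in wild-type total lysates, loci at genes known for early termination, and, where 5 or fewer, loci that an alternative or 1 library decides. The motif windows of 2 named CUTs, CUT307 and CUT743, run past their ends. At 1 locus, CUT763, RefSeq has a gene on the CUT's strand that the deposited annotation lacks.

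Replicate numbers are shared by the groups. Deviations of same-numbered libraries from their group means correlated weakly between the wild-type fractions (0.243, 0.393 and 0.114). In the mutant the correlations were 0.384, -0.356 and -0.19. By the study's methods, part of the shifted cells was taken for the total lysate and the rest was fractionated, so both fractions of a culture are paired. Whether equal numbers mark 1 culture is not stated. The main fits leave this pairing out. With the replicate block, 52 loci were higher and 4 lower in the wild-type fractions, and 108 and 3 in the mutant fractions. The methods call the 3 samples of a group biologically independent. The precision is limited by the low counts at most loci.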

Additional observations from a re-analysis of the deposited data

Results flagged for a closer look

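At 6 CUT loci the change from total lysate to cytoplasm differed between the strains by the test of the interaction itself (edgeR's quasi-likelihood test, adjusted p under 0.05). Of the 136 loci tested, 2.21% were called in each direction, beside 4.57% higher and 5.68% lower of all 13145 features. The share among the CUT loci was thus not above the background. The difference, mutant minus wild type on the log2 scale, was -1.80 at CUT271 (STT4), -1.67 at CUT307 (YMR194C-A) and -1.56 at CUT129 (YGL185C), and 1.53 at CUT304 (INP2), 1.30 at CUT665 (NEO1) and 1.24 at CUT895 (NOG1). With each library left out in turn, CUT307 kept its call in every fit and the other 5 did not. CUT271 and CUT129 were also not called with the replicate number as a block (adjusted p = 0.0588 and 0.0603). At CUT271 and CUT129 the wild-type cytoplasmic counts were 44, 119 and 84, and 53, 121 and 65, with replicate 2 the highest in both. In wild-type total lysates CUT271 held 0.14% of the RNA of the host strand per base, within the range of reads on the wrong strand.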

How the results depend on the processing

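Counts of called loci are given here as higher and lower. With any count, a mean above 10 or filterByExpr in place of a mean above 40, the wild-type fractions gave 115, 120 and 124 higher and 6, 6 and 6 lower, and the total lysates 108, 107 and 108 higher, with 4 lower for any count. At a threshold of 0.01 the wild-type fractions gave 26 higher and 1 lower, the mutant fractions 1 lower, the total lysates 1 lower and the interaction 0 in either direction by edgeR, where 9 and 13 had an unadjusted p under 0.05 and DESeq2 called 2 and 1 at 0.01. Library totals moved the median log2 fold change of all features by 0.136 (wild-type fractions), 0.502 (mutant fractions), 0.225 (total lysates) and 0.303 (interaction). With them, the mutant fractions and the total lysates had 1 lower each, and the interaction 5 higher and 1 lower. For the interaction, DESeq2 and RLE factors gave 5 higher each.

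With the replicate block, the interaction gave 1 lower and the total lysates 1 lower, and no other count moved by over 1.5 times. All libraries in 1 fit gave 1 lower in the total lysates. Where the CUT covers at least 0.5 of the reading feature, the wild-type fractions gave 11 higher and 1 lower, the mutant fractions 32 and 1, the total lysates 11 and 0 and the interaction 1 and 1, of 14, 44, 15 and 33 loci tested. With at least 0.8 of the CUT inside, the mutant fractions gave 2 lower. With no other lncRNA along the reading feature, the wild-type fractions gave 1 lower and the total lysates 0. Leaving out loci under 1% of the opposite strand over all 12 libraries, chosen after seeing the data, gave 1 lower in the wild-type fractions and 0 in the total lysates. In these 3 sets of loci no fall in the total lysates had an unadjusted p under 0.05 in edgeR or was called by DESeq2. Leaving out loci within the range of wrong-strand reads in wild-type total lysates, also chosen after seeing the data, gave 40, 99 and 45 higher and 3, 4 and 2 lower in the wild-type fractions, the mutant fractions and the total lysates, and 3 and 2 for the interaction. By the deposited names, where a CUT feature holds RNA of the other strand, the wild-type fractions gave 96 lower, the mutant fractions 165 lower, the total lysates 92 higher and 107 lower, and the interaction 17 and 20.

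Without 1 library, the ranges were 19 to 55 higher and 1 to 4 lower in the wild-type fractions, 93 to 116 and 1 to 3 in the mutant fractions, 35 to 51 and 1 to 2 in the total lysates, and 0 to 7 and 1 to 7 for the interaction. The 19 came without cytoplasmic replicate 2 of wild type, and all 19 were among the 49. Scaled by TMM library sizes, the median RPKM was 0.371 in wild-type total lysates and 0.944 in mutant cytoplasm. Of 386 values of the named loci under another fit, 328 kept direction and call, 58 kept direction only and 0 reversed. The cause was not tested. Depth limits what could be asked: with a mean count above 40 required, 78 of the 285 loci were tested in the wild-type fractions and 75 in the total lysates.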
